A study of Mus musculus with 9 samples.

Results

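Expression of 9 genes of the leukocyte adhesion machinery was followed in mouse heart after myocardial ischemia/reperfusion injury (MIRI) with and without Guanxinning injection (GXNI), a preparation of Danshen and Chuanxiong. The 9 genes were taken by symbol from the 54532 gene identifiers of the count table, and all 9 were present. They encode E-selectin (Sele), P-selectin (Selp), the selectin ligand PSGL-1 (Selplg), the endothelial ligands ICAM-1 (Icam1), VCAM-1 (Vcam1) and PECAM-1 (Pecam1), and the integrin subunits alpha M (Itgam), beta 2 (Itgb2) and alpha 4 (Itga4). The hearts were those of male wild-type C57BL/6J mice, 8 to 10 weeks old, with 3 mice in each of the 3 groups. In the MIRI group the left anterior descending coronary artery was tied for 30 min and reperfused for 24 h, with saline injected into the tail vein. The GXNI group had the same ligation and received GXNI at 9 mL/kg. In sham mice the thread was passed but not tied. Tail vein injections of drug or saline were given in all groups, within 10 min of ischemia.

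Circulating leukocytes leave the blood in steps. Selectins on activated endothelium and platelets catch sugar-bearing ligands such as PSGL-1 so that the cells roll, chemokines then switch leukocyte integrins to a state of high affinity, and the integrins hold the cells on ICAM-1 and VCAM-1 before they pass between endothelial cells through PECAM-1. After a heart attack this route brings neutrophils, and later monocytes, into the injured muscle.

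Promoter sequences are shown for Sele and Selp, the genes called in the comparisons below, and for Icam1, which like them is known to be switched on in endothelium by inflammatory cytokines. Sele spans positions 164048234 to 164057677 of chromosome 1 (genome build GRCm38) and Selp positions 164115264 to 164150026, both on the forward strand. Icam1 spans positions 21015985 to 21028817 of chromosome 9, also on the forward strand. RefSeq promoter sequences were found for 5 of the 9 genes (Sele, Selp, Icam1, Itgam and Itga4), and the 250 bases before the RefSeq start are given here 5′ to 3′ for 3 of them, with the letters that matched a motif in capitals. For Icam1 the RefSeq start lies upstream of the GENCODE start given above.
Sele, chr1:164047984-164048233, forward strand: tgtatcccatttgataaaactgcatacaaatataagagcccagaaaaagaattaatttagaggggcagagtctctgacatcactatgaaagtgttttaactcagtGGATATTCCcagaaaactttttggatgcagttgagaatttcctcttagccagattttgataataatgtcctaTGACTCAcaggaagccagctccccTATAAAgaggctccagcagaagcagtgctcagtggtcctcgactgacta
Selp, chr1:164115014-164115263, forward strand: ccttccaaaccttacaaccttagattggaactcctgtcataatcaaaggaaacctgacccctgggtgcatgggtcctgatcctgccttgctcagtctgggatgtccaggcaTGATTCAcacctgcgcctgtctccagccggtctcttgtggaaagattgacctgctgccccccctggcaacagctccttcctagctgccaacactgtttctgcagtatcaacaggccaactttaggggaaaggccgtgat
Icam1, chr9:21015690-21015939, forward strand: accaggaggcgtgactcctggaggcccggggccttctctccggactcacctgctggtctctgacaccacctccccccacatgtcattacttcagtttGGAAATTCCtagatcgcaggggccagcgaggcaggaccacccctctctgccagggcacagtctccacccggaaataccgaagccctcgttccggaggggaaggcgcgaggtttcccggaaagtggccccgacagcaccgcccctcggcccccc

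A set of 3 motifs was searched on both strands of these windows. TATAAA, the TATA box, was found 49 bases before the Sele start and is present in 12.4% of the 32851 RefSeq promoter windows of the same length. TGANTCA, the AP-1 site TGACTCA with its middle base left free, was present in 6.75% of windows. It was found as TGACTCA at 73 bases before the Sele start and as TGATTCA at 139 bases before the Selp start. The Selp match thus differs from TGACTCA in the middle base. GGANNTTCC, a core that NF-kappa-B binds, was found as GGATATTCC at 145 bases before the Sele start and as GGAAATTCC at 153 bases before the Icam1 start, against 3.59% of windows. The motifs were chosen after these windows had been read, so the matches describe the letters only. No match to any of the 3 lay in the windows of Itgam and Itga4.

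The libraries held between 17119454 and 22811295 counted reads, at which 3 counts correspond to 0.132 to 0.175 CPM. This unit, a count scaled to the library total, was corrected with TMM factors for differences in RNA composition between libraries. The labels give the cell type as cardiomyocytes and the tissue as heart. All 8 cardiomyocyte markers, all 10 endothelial markers and all 12 neutrophil markers had more than 3 counts in at least 1 library, so RNA of several cell types was present. In such bulk RNA, fewer cells of a type and less RNA per cell cannot be told apart. The libraries labelled MIRI 2, GXNI 1 and GXNI 3 stood apart from their groups. On the first principal component of 15207 genes, which held 64.7% of the variance, the sham libraries scored -52.2 to -59.8, MIRI 2 scored -44.5 beside 61.5 and 83.3 in the other MIRI libraries, and GXNI 1, 2 and 3 scored -43.5, 18.8 and 94.4. MIRI 2 had its highest rank correlation with GXNI 1 (0.982) and GXNI 3 with MIRI 3 (0.987). Other tissue markers also set MIRI 2 and GXNI 1 apart. MIRI 2 had 250 reads of the atrial marker Dkk3, against 14 to 67 in the other libraries, and adipocyte markers summing to 8.11 CPM, against at most 1.54. The 6 atrial markers averaged 1.79 log2 CPM in MIRI 2, against -1.30 to -0.24 in the other libraries. Their sum did not set it apart, at 184 CPM against 42.1 to 730. GXNI 1 had mesothelial markers summing to 75.6 CPM, against 8.94 to 25.1. Their part in the results was not tested. Whether these labels match the animals cannot be told from the counts, so results are given below with and without MIRI 2 and GXNI 3.

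Both endothelial selectins were higher in every ligated heart than in any sham heart. Sele, which lets rolling leukocytes attach to activated endothelium, stood at 0.967, 0.992 and 1.61 CPM in sham mice 1 to 3. It reached 18.2, 3.23 and 16.9 CPM in MIRI mice 1 to 3 and 2.33, 4.31 and 24.02 CPM in GXNI mice 1 to 3. MIRI 2, GXNI 1 and GXNI 2 were the low ligated hearts, at 55, 47 and 87 reads against 18 to 30 reads in sham hearts, while the other 3 had 391 to 414 reads. The log2 fold change was 3.44 ± 0.66 (SE) in MIRI against sham, a 10.8-fold higher level, with an unadjusted p of 0.001273 and an adjusted p of 0.0683 by edgeR's quasi-likelihood test.

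Selp, which endothelial cells and platelets store in granules and bring to the surface on activation, was at 1.67, 0.694 and 1.45 CPM in sham hearts. The values were 20.1, 1.82 and 34.1 CPM in MIRI hearts and 2.98, 4.91 and 38.9 CPM in GXNI hearts. MIRI 2, at 31 reads, had as many reads as sham 1, and its CPM exceeded that of sham 1 by less than the spread among the sham hearts. In MIRI against sham the log2 fold change was 3.89 ± 0.97 (SE), or 14.8-fold, with an unadjusted p of 0.005246 and an adjusted p of 0.08692 by edgeR's quasi-likelihood test.

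Calls here rest on a change of 1.5-fold or more together with an unadjusted p no higher than 0.01. In MIRI against sham, 2 of the 9 adhesion genes, Sele and Selp, were called higher and 0 lower, where 6.15% of the 14644 genes tested were called higher and 2.82% lower. The MIRI and sham values of Sele and Selp did not overlap, as for 16.7% of all genes with MIRI above sham. At an adjusted p of at most 0.05 by edgeR's quasi-likelihood test, 0 of the 9 passed, and 0.0137% of all genes passed in the higher direction. An unadjusted p under 0.05 was reached by 5 of the 9 and by 28.3% of all genes. All 9 fold changes were above 0, with a median log2 fold change of 1.62, beside 49.9% of all genes above 0 and a median of -0.0015. DESeq2 called 5 of the 9 higher, adding Selplg, Itgam and Itgb2, beside 5.34% of the genes it tested, and edgeR without the filter on low counts called 5 beside 5.75%. At an adjusted p of at most 0.05, 5 of the 9 passed with DESeq2, beside 4.98% of genes, and 2 with edgeR without the filter, beside 3.06%. DESeq2 and the unfiltered edgeR fit covered 27898 and 27901 genes, including genes with few counts, against 14644 in the filtered fit. Their shares of all genes, here and below, are over this larger set and do not compare with shares over the filtered genes. Leaving out MIRI 1, MIRI 3 or any sham library left 1 of the 9 called. The share of all genes called at these settings is not given here.

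**Figure D1:**
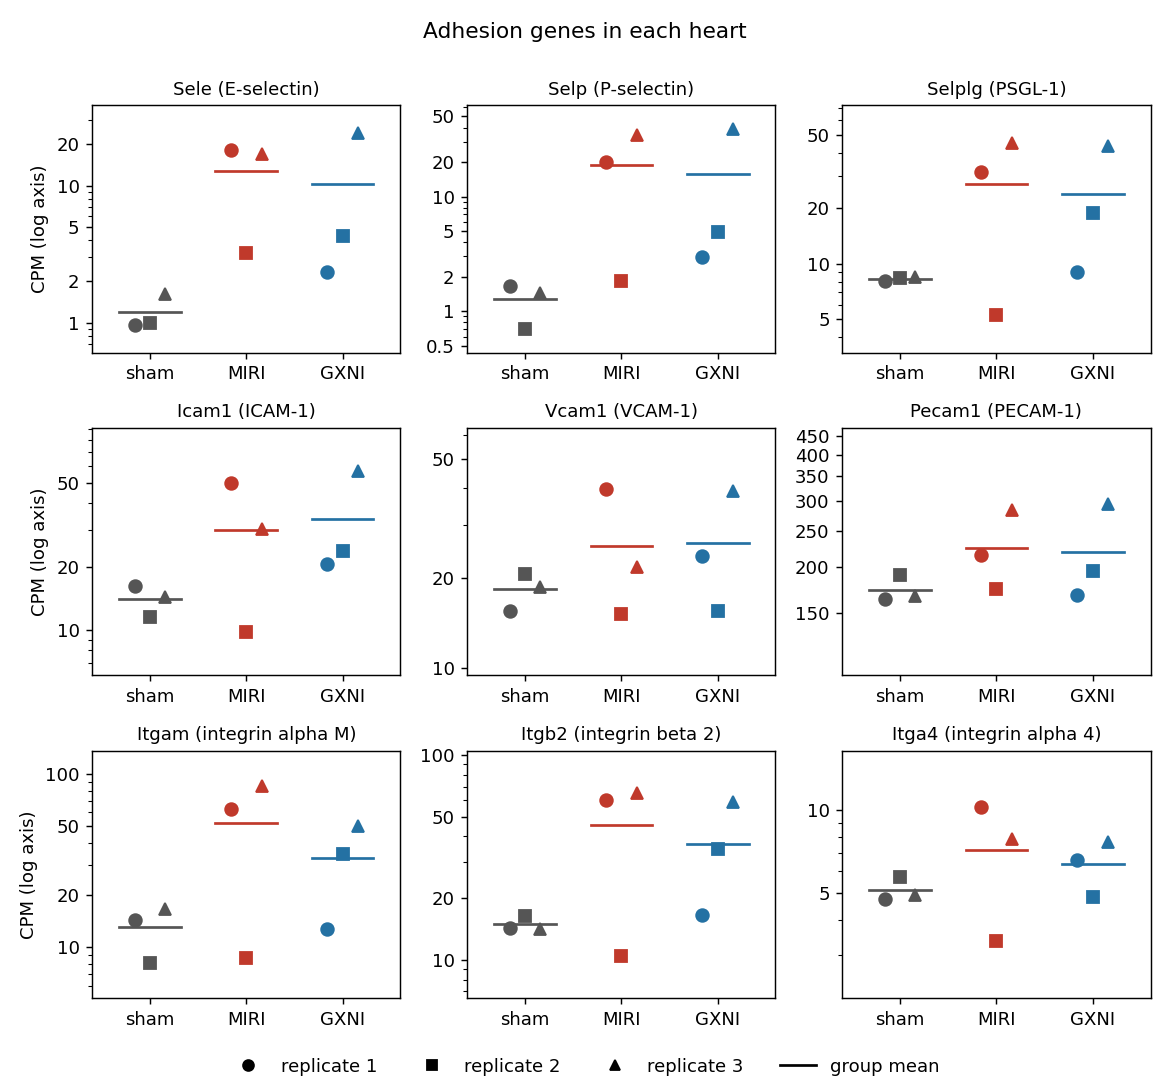
CPM of each of the 9 adhesion genes on a log axis whose range differs between panels, for the 3 sham, 3 MIRI and 3 GXNI hearts; symbols give the replicate number and lines the group mean. Sele and Selp lie above the sham hearts in all 6 ligated hearts, while MIRI 2 lies within or below the sham range for the other 7 genes.

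Selplg, the counter-receptor of both selectins on leukocytes, varied least among sham hearts, at 8.06, 8.38 and 8.51 CPM. It stood at 31.3, 5.29 and 45.1 CPM in MIRI hearts and at 9.09, 18.9 and 43.6 CPM in GXNI hearts. MIRI 2 was below every sham heart and the other 5 ligated hearts were above all of them. The log2 fold change in MIRI against sham was 1.72 ± 0.65 (SE), with an unadjusted p of 0.03373 and an adjusted p of 0.1487 by edgeR's quasi-likelihood test, and was not called.

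The 2 subunits of Mac-1, the integrin by which neutrophils and monocytes hold on to ICAM-1, had a like order of libraries. Itgam was at 14.3, 8.13 and 16.6 CPM in sham hearts, 62.4, 8.70 and 85.1 CPM in MIRI hearts and 12.8, 34.4 and 50.4 CPM in GXNI hearts. MIRI 2 and GXNI 1 lay within the sham range and the other 4 ligated hearts above it. Itgam shares 3450 of its 5024 exonic bases with the overlapping gene Gm49368 on the same strand, to which 0 to 3 reads were assigned, so its count may be too low in all libraries.

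Itgb2, the beta chain common to the leukocyte integrins, was at 14.2, 16.4 and 14.1 CPM in sham hearts, 60.4, 10.4 and 65.6 CPM in MIRI hearts and 16.5, 34.6 and 58.9 CPM in GXNI hearts. MIRI 2 was again the lowest of the 9 hearts, and the 3 GXNI hearts lay above the 3 sham hearts. In MIRI against sham the log2 fold change was 2.01 ± 0.74 for Itgam and 1.62 ± 0.60 for Itgb2 (SE), with adjusted p-values of 0.1405 and 0.1423 by edgeR's quasi-likelihood test, and neither was called.

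Itga4, the alpha chain of VLA-4 that binds VCAM-1, was at 4.78, 5.70 and 4.93 CPM in sham hearts, 10.2, 3.35 and 7.88 CPM in MIRI hearts and 6.61, 4.86 and 7.66 CPM in GXNI hearts. Its groups overlapped, and the log2 fold change in MIRI against sham was 0.49 ± 0.39 (SE), which was not called.

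Among the endothelial ligands, Icam1 had the highest ratio of its highest to its lowest heart. It was at 16.2, 11.5 and 14.4 CPM in sham hearts, 49.7, 9.75 and 30.2 CPM in MIRI hearts and 20.6, 23.8 and 56.8 CPM in GXNI hearts. MIRI 2 was the lowest heart of all, and every GXNI heart exceeded every sham heart. Vcam1, the ligand of VLA-4, stood at 15.5, 20.6 and 18.7 CPM in sham hearts, 39.5, 15.1 and 21.8 CPM in MIRI hearts and 23.6, 15.5 and 39.1 CPM in GXNI hearts, and its groups overlapped in every comparison.

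Pecam1, a junctional protein of endothelium that platelets and leukocytes also carry, was the most abundant of the 9, at 164, 190.1 and 167 CPM in sham hearts, 215, 175 and 285 CPM in MIRI hearts and 168, 194 and 295 CPM in GXNI hearts. MIRI 2 and GXNI 1 lay within the sham range. In MIRI against sham the log2 fold change was 1.11 ± 0.52 for Icam1, 0.49 ± 0.34 for Vcam1 and 0.38 ± 0.19 for Pecam1 (SE), and none of the 3 was called.

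Per kilobase of exon, the order of levels in sham hearts began with Pecam1 at 27.9 ± 2.33 CPM per kb (SD, n = 3) and Itgb2 at 4.89 ± 0.413. Icam1 (3.22), Itgam (2.59), Vcam1 (2.06) and Selplg (1.95) followed, each overlapping the next, and Sele (0.408), Itga4 (0.368) and Selp (0.287) closed the order with overlapping ranges. In the 6 ligated hearts Pecam1 was still first, at 35.6 ± 8.86 CPM per kb (SD, n = 6), and Itga4 was last at 0.484 ± 0.173. The other 7 genes, from Itgb2 at 13.5 ± 7.86 down to Vcam1 at 2.91 ± 1.24, each overlapped their neighbour. Sele and Selp, with means of 3.95 and 3.88 CPM per kb, stood above Vcam1 in that order, whereas in sham hearts they stood below it. By heart this held in MIRI 1, MIRI 3 and GXNI 3. In MIRI 2, GXNI 1 and GXNI 2 both stayed below Vcam1. There Sele was at 1.11, 0.802 and 1.48, Selp at 0.413, 0.675 and 1.11, and Vcam1 at 1.70, 2.67 and 1.75 CPM per kb.

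Without the library labelled MIRI 2, 7 of the 9 genes were called higher in MIRI against sham, beside 16.9% of the 15207 genes tested, and all 9 had an adjusted p of at most 0.05 by edgeR's quasi-likelihood test, beside 22.8% of all genes in the higher direction. The log2 fold change was then 2.20 for Selplg, 2.51 for Itgam, 2.08 for Itgb2, 1.51 for Icam1 and 0.82 for Itga4, all called. Pecam1 at 0.53 and Vcam1 at 0.75 were not called. For Sele and Selp the values were 3.89 and 4.43. MIRI 2 was left out because it stood apart from its group, near the sham hearts, which sets the direction of these changes. The same holds wherever MIRI 2 is left out below.

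The comparison of GXNI with MIRI hearts asks whether the injection altered these genes. For Sele, Selp and Selplg the log2 fold change was -0.32 ± 0.96, -0.25 ± 1.20 and -0.18 ± 0.81 (SE). It was -0.67 ± 0.81 for Itgam, -0.30 ± 0.71 for Itgb2 and -0.16 ± 0.42 for Itga4. Icam1, Vcam1 and Pecam1 gave 0.18 ± 0.63, 0.04 ± 0.46 and -0.03 ± 0.28. The groups overlapped for all 9 genes, each fold change was smaller than its standard error, and the adjusted p by edgeR's quasi-likelihood test was 1.0 for each. Of the 9 genes, 0 were called in either direction and 0 had an unadjusted p under 0.05, beside 0.0203% of the 14762 genes tested called lower, 0% called higher and 0.318% with an unadjusted p under 0.05. The fold change was above 0 for 2 of the 9, Icam1 and Vcam1, beside 49.9% of all genes. DESeq2 also called 0 of the 9, beside 0.0142% of genes higher and 0.0249% lower. With standard errors near 1 log2 unit for the selectins, a difference of about that size was not detectable between these groups.

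This comparison depended on 2 libraries. Without both MIRI 2 and GXNI 3, which leaves 2 hearts a group, 4 of the 9 genes were called lower in GXNI, beside 3.47% of the 14984 genes tested. The log2 fold change was then -2.39 for Sele, -2.76 for Selp, -1.44 for Selplg and -1.29 for Itgb2, with unadjusted p-values of 0.0003681, 0.0002828, 0.00842 and 0.009298 by edgeR's quasi-likelihood test. The adjusted p was 0.1825 for Sele and Selp, and 0% of all genes passed an adjusted p of 0.05. Icam1 and Vcam1 turned from 0.18 and 0.04 to -0.84 and -0.64 and were not called. These hearts, a low one of MIRI and a high one of GXNI, were left out because they stood apart from their groups, which sets the direction of what remains. GXNI 1 also stood apart, at -43.5 on the first principal component, near the sham hearts, and was kept. The calls without MIRI 2 and GXNI 3 are therefore no test of the injection.

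In GXNI against sham, 0 of the 9 genes were called, beside 2.67% of the 14695 genes tested called higher and 1.54% lower, and 0% passed an adjusted p of 0.05 in the higher direction. An unadjusted p under 0.05 was reached by 6 of the 9, beside 19.8% of all genes, and all 9 fold changes were above 0, beside 50.9%. The sham libraries are the same as in the comparison with MIRI. Sele had a log2 fold change of 3.11 ± 0.91 (SE) and Selp of 3.63 ± 1.06, with unadjusted p-values of 0.01153 and 0.01145 and an adjusted p of 0.2191 for both by edgeR's quasi-likelihood test. For Selplg, Icam1 and Itgb2 the log2 fold change was 1.53 ± 0.52, 1.28 ± 0.41 and 1.31 ± 0.42. Values in GXNI hearts lay wholly above those in sham hearts for Sele, Selp, Selplg, Icam1 and Itgb2, as for 13.5% of all genes. Itgam (1.33), Vcam1 (0.53), Pecam1 (0.35) and Itga4 (0.32) overlapped with sham. DESeq2 called 6 of the 9 in this comparison, beside 3.56% of genes, with 5 at an adjusted p of at most 0.05 beside 2.16%, and edgeR without the filter called 6 beside 3.57%. Leaving out GXNI 1 gave 6 calls, beside 10.7% of genes, and leaving out GXNI 3 gave 3, beside 2.11% of genes. Leaving out GXNI 2 gave 1, for which the share of all genes is not given here. Without GXNI 3 the log2 fold change was 1.49 for Sele, 1.64 for Selp and 0.67 for Icam1, and these 3 were called, at smaller fold changes than with all libraries.

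With the 6 ligated hearts taken as 1 group against sham, Sele and Selp were called higher, at log2 fold changes of 3.27 ± 0.87 and 3.76 ± 1.12 (SE), beside 5.52% of the 15207 genes tested called higher and 2.85% lower. Their adjusted p was 0.08754 and 0.09265 by edgeR's quasi-likelihood test, where 0.0263% of all genes passed 0.05 in the higher direction. Only these 2 of the 9 did not overlap between ligated and sham hearts, beside 7.96% of all genes with ligated above sham. Selplg (1.62), Itgam (1.70), Itgb2 (1.46) and Icam1 (1.18) had unadjusted p-values of 0.02495 to 0.03468 and were not called. Vcam1, Pecam1 and Itga4 had log2 fold changes of 0.50, 0.36 and 0.40. All 9 fold changes were above 0, beside 50.5% of all genes, and 6 had an unadjusted p under 0.05, beside 29.5%. DESeq2 called 5 of the 9, beside 5.18% of genes, and 5 passed its adjusted p of 0.05, beside 5.14%. Without MIRI 2, 6 were called, beside 9.67%, and without both MIRI 2 and GXNI 3, 5 were called, beside 6.6%. Leaving out any 1 sham library left 0 called, and leaving out MIRI 1, MIRI 3 or GXNI 3 left 1. For these settings too the share of all genes is not given.

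**Figure D2:**
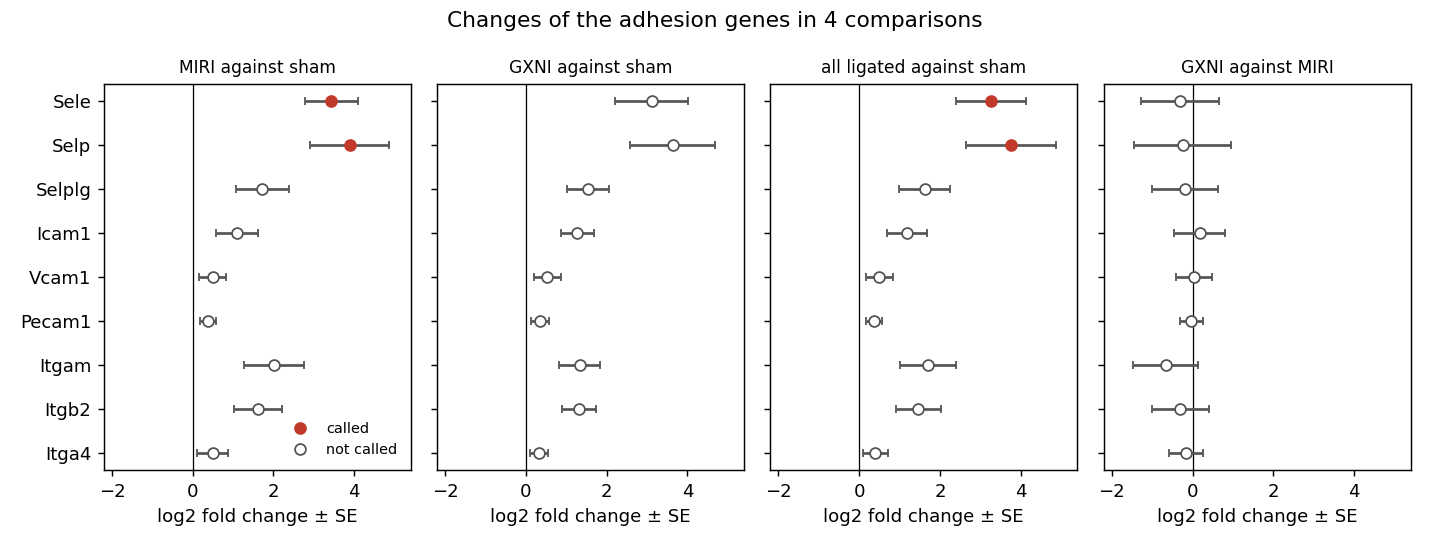
Log2 fold change of each adhesion gene, with bars of 1 standard error, in the 4 comparisons; filled points were called (1.5-fold or more, unadjusted p no higher than 0.01). Sele and Selp are the called genes in MIRI and in all ligated hearts against sham, and every bar crosses 0 in GXNI against MIRI.

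Counted by heart, all 9 genes exceeded the highest sham value in MIRI 1, MIRI 3 and GXNI 3, beside 39.2%, 41.7% and 41.1% of the 15207 genes. In GXNI 1 and GXNI 2, 7 of the 9 did so, beside 30.3% and 36.5%. In MIRI 2 it was 2 of the 9, Sele and Selp, beside 31.9%. The median fold over the sham mean across the 9 genes was 3.77, 0.698 and 4.40 in MIRI hearts 1 to 3 and 1.29, 2.27 and 3.95 in GXNI hearts 1 to 3.

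Of the leukocyte lists, those of neutrophils and of all leukocytes had the highest median fold changes in all ligated hearts against sham. The summed level of the 12 neutrophil markers ran from 34.7 to 68.9 CPM in sham hearts and from 31.6 to 821 CPM in ligated hearts, lowest in MIRI 2 and at 58.8 CPM in GXNI 1. Of the 11 that were tested, 11 had a fold change above 0 in all ligated hearts against sham, with a median log2 fold change of 3.05, and 2 were called. The 7 pan-leukocyte markers summed to 142 to 177 CPM in sham and 91.5 to 538 CPM in ligated hearts. The 11 monocyte and macrophage markers had a median log2 fold change of 0.014, with 7 above 0 and 0 called. They did not move alike, with Cd14 at 10.7 to 12.7 CPM in sham and 7.87 to 121 CPM in ligated hearts. C1qa was at 91.5 to 112 CPM in sham and 47.8 to 127 CPM in ligated hearts. Of the 4 lymphocyte markers tested, 2 were above 0 and 0 called. The 10 endothelial markers summed to 779 to 1058 CPM in sham and 790.4 to 1317 CPM in ligated hearts, and 0 of them were called. The 8 cardiomyocyte markers averaged 12.06 to 12.17 log2 CPM in sham hearts and 11.42 to 12.19 in ligated hearts, highest in MIRI 2, with a median log2 fold change of -0.39 and 0 called. The part of cell number in the changes of the 9 genes was not tested.

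Across the 9 libraries, Pearson's r with the mean log2 CPM of the pan-leukocyte markers was 0.99 for Selplg, 0.981 for Itgb2 and 0.952 for Itgam. With the neutrophil markers it was 0.985 for Itgam, 0.957 for Selp and 0.906 for Sele. With the monocyte and macrophage markers it ran from 0.671 for Sele to 0.906 for Itga4, with 0.902 for Selplg. Icam1 had 0.634 with the endothelial, 0.927 with the pan-leukocyte and 0.929 with the neutrophil markers. For Vcam1 these values were 0.766, 0.752 and 0.655. The endothelial markers gave 0.855 for Pecam1, 0.7 for Selp and 0.698 for Sele, and Pecam1 had higher values with the pan-leukocyte (0.886) and platelet (0.86) markers. The platelet value rests in part on counts near 0. Of those 8 markers, Gp1bb had 0 counts in every library, and Gp6, Treml1 and Gp9 had at most 4, 6 and 13. With the cardiomyocyte markers r was negative for all 9 genes, from -0.697 for Vcam1 to -0.98 for Itgb2. Among the 9 genes themselves, r ran from 0.574 between Vcam1 and Itgam to 0.991 between Selplg and Itgb2. These values rest on 9 points that share the sham and ligated contrast and are given as a description.

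To set each gene beside a marker of the cells that carry it, CPM was divided by that of Cdh5, which encodes the endothelial junction protein VE-cadherin, or by that of Ptprc, which encodes CD45 on leukocytes. Sele was 0.675%, 0.45% and 0.91% of Cdh5 in sham hearts, 8.29%, 2.09% and 5.2% in MIRI hearts and 1.41%, 2.44% and 6.43% in GXNI hearts. Selp was 1.16%, 0.315% and 0.819% of Cdh5 in sham hearts, 9.16%, 1.18% and 10.5% in MIRI hearts and 1.8%, 2.77% and 10.4% in GXNI hearts. All 6 ligated hearts lay above all 3 sham hearts for both ratios, MIRI 2 only just so for Selp.

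Selplg was 45.3%, 41.5% and 43.4% of Ptprc in sham hearts, 66.1%, 72.0% and 119% in MIRI hearts and 57.9%, 102% and 80.8% in GXNI hearts. Itgb2 was 80.1%, 81.1% and 72.1% of Ptprc in sham hearts, 127%, 142% and 173% in MIRI hearts and 105%, 187% and 109% in GXNI hearts. For both genes MIRI 2, which was the lowest heart in CPM, lay above every sham heart in the ratio to Ptprc, and so did the other 5 ligated hearts. Ptprc itself was at 7.34 CPM in MIRI 2, 15.7 CPM in GXNI 1 and 17.8 to 20.2 CPM in sham hearts.

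The mean log2 ratio in ligated against sham hearts differed by 2.45 for Sele, 2.67 for Selp, 0.89 for Selplg and 0.82 for Itgb2, each with p = 0.02381 by a two-sided exact permutation test of 6 hearts against 3, the smallest that this design allows. Over the 9 genes the adjusted p was 0.05357 for these 4, which did not pass 0.05. With the mean of the whole marker list in place of the single marker, the difference was 2.59 for Sele and 2.81 for Selp, each still with p = 0.02381 by the exact permutation test. Against the 7 pan-leukocyte markers it was 0.27 for Selplg (p = 0.04762, exact permutation test) and 0.20 for Itgb2 (p = 0.1667, exact permutation test), and the groups then overlapped for both. The difference was 1.01 for Itgam (p = 0.04762, adjusted p = 0.08571, exact permutation test) and 0.64 for Icam1 (p = 0.1905, adjusted p = 0.2857, exact permutation test). Vcam1 to Cdh5, Pecam1 to Cdh5 and Itga4 to Ptprc differed by 0.07, -0.0042 and -0.03, less than the spread among sham hearts. A mean near 0 did not mean like hearts. The SD of the log2 ratio was 0.645 in ligated and 0.0847 in sham hearts for Itga4, and 0.509 and 0.113 for Vcam1. Itga4 was 26.9%, 28.3% and 25.1% of Ptprc in sham hearts. It was 21.6%, 45.6% and 20.8% in MIRI hearts and 42.1%, 26.3% and 14.2% in GXNI hearts.

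**Figure D3:**
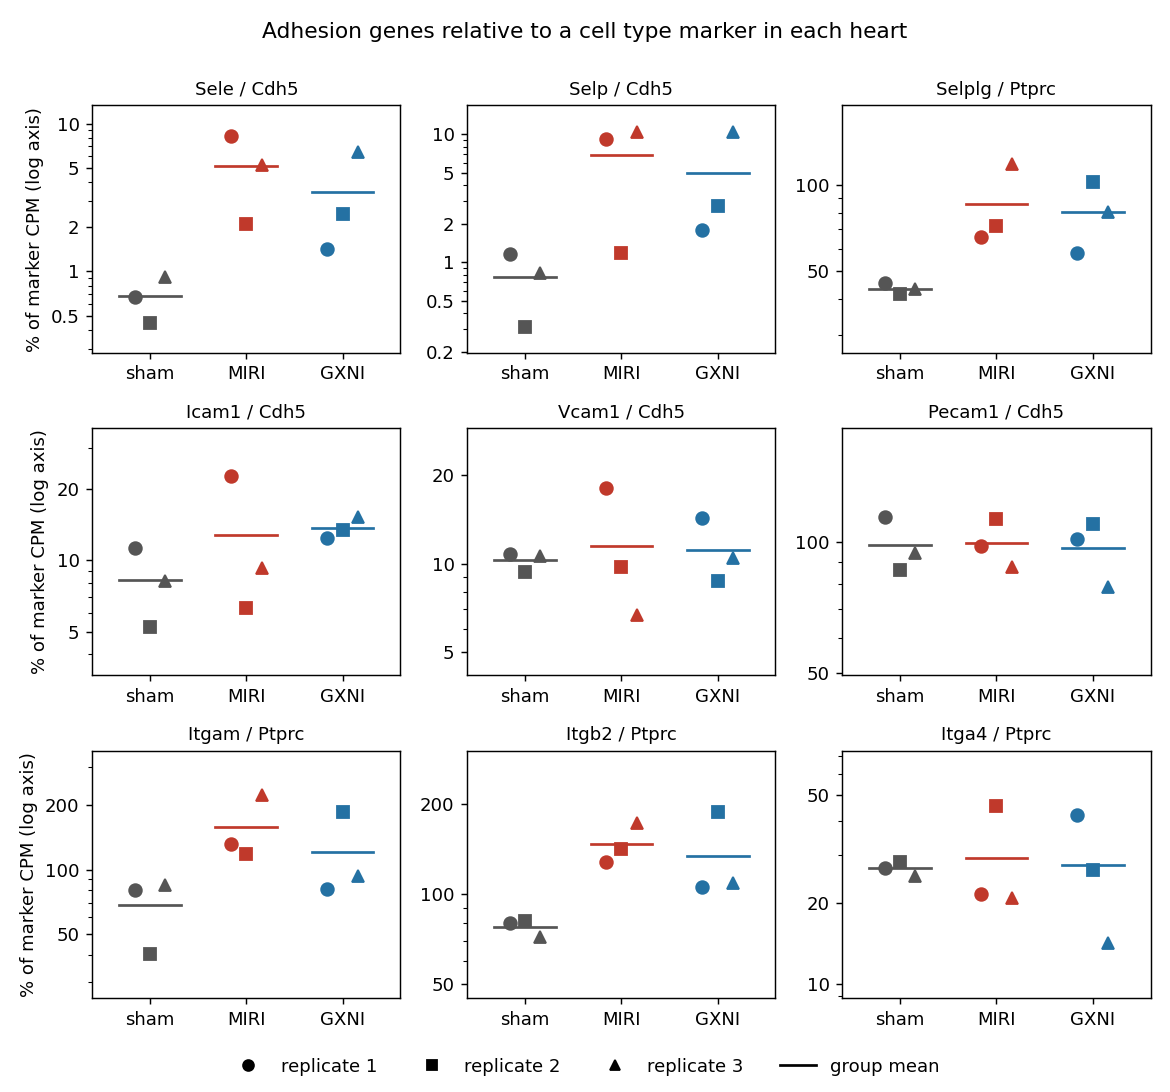
CPM of each adhesion gene as a percentage of Cdh5 (endothelial) or Ptprc (leukocyte) CPM in each heart, on log axes whose ranges differ between panels; symbols give the replicate number and lines the group mean. For Sele, Selp, Selplg and Itgb2 all 6 ligated hearts lie above the 3 sham hearts, and for Pecam1 and Vcam1 the groups overlap.

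Of 61 further genes of the adhesion cascade that were listed, 53 of the 60 found by symbol were tested in all ligated against sham hearts. Of these, 8 were called higher and 0 lower, beside 5.52% of all genes higher, and 39 had a fold change above 0, beside 50.5%, with a median log2 fold change of 0.68 beside 0.0076 for all genes. Among 14 selectin ligands and glycosylation genes, the called genes were Cd24a at 3.10 ± 0.75 (SE), which encodes a P-selectin ligand, and Cd44 at 2.85 ± 0.80, a receptor of hyaluronan that can also carry selectin ligands.

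Of 11 further integrin genes, Itga5 (2.35 ± 0.53, SE), Itgb3 (2.27 ± 0.64) and Itgb1 (0.83 ± 0.19) were called higher. Itga5 and Itgb1 encode the fibronectin receptor, and Itgb3 the beta chain of the platelet fibrinogen receptor and of the vitronectin receptor. Itgb1, the partner of Itga4 in VLA-4, rose from 457 ± 10.7 CPM (SD, n = 3) in sham to 811 ± 172 CPM (SD, n = 6) in ligated hearts. Its groups did not overlap, as for 7.96% of all genes with ligated above sham. Itga4 itself, at a mean of 5.14 CPM in sham hearts, was not called, so the level of VLA-4 is not given by Itgb1. The other alpha partners of Itgb2, Itgal (1.55 ± 0.82) and Itgax (1.84 ± 0.76), and the beta chain Itgb7 (1.12 ± 0.71) were not called.

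Among 11 endothelial and junctional genes, Mcam, which encodes the adhesion molecule CD146, was called at 1.33 ± 0.35 (SE). Icam2, the constitutive relative of Icam1 on resting endothelium, had a log2 fold change of 0.01 ± 0.23, with 12.2 to 24.1 CPM in sham and 15.99 to 25.5 CPM in ligated hearts. F11r (0.07), Jam2 (-0.58), Jam3 (-0.23) and Cdh5 (0.39), all of the endothelial junction, were not called. Among 17 integrin activation genes, Tln1 (1.06 ± 0.31) and Vcl (0.89 ± 0.20), which link integrins to actin in many cell types including cardiomyocytes, were called, and the leukocyte kindlin Fermt3 (0.68 ± 0.35) was not. In MIRI against sham 11 of 53 cascade genes were called, beside 6.15% of all genes, and in GXNI against sham 6 of 52, beside 2.67%, all higher. In GXNI against MIRI 0 of 52 were called, beside 0% higher and 0.0203% lower.

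**Figure D4:**
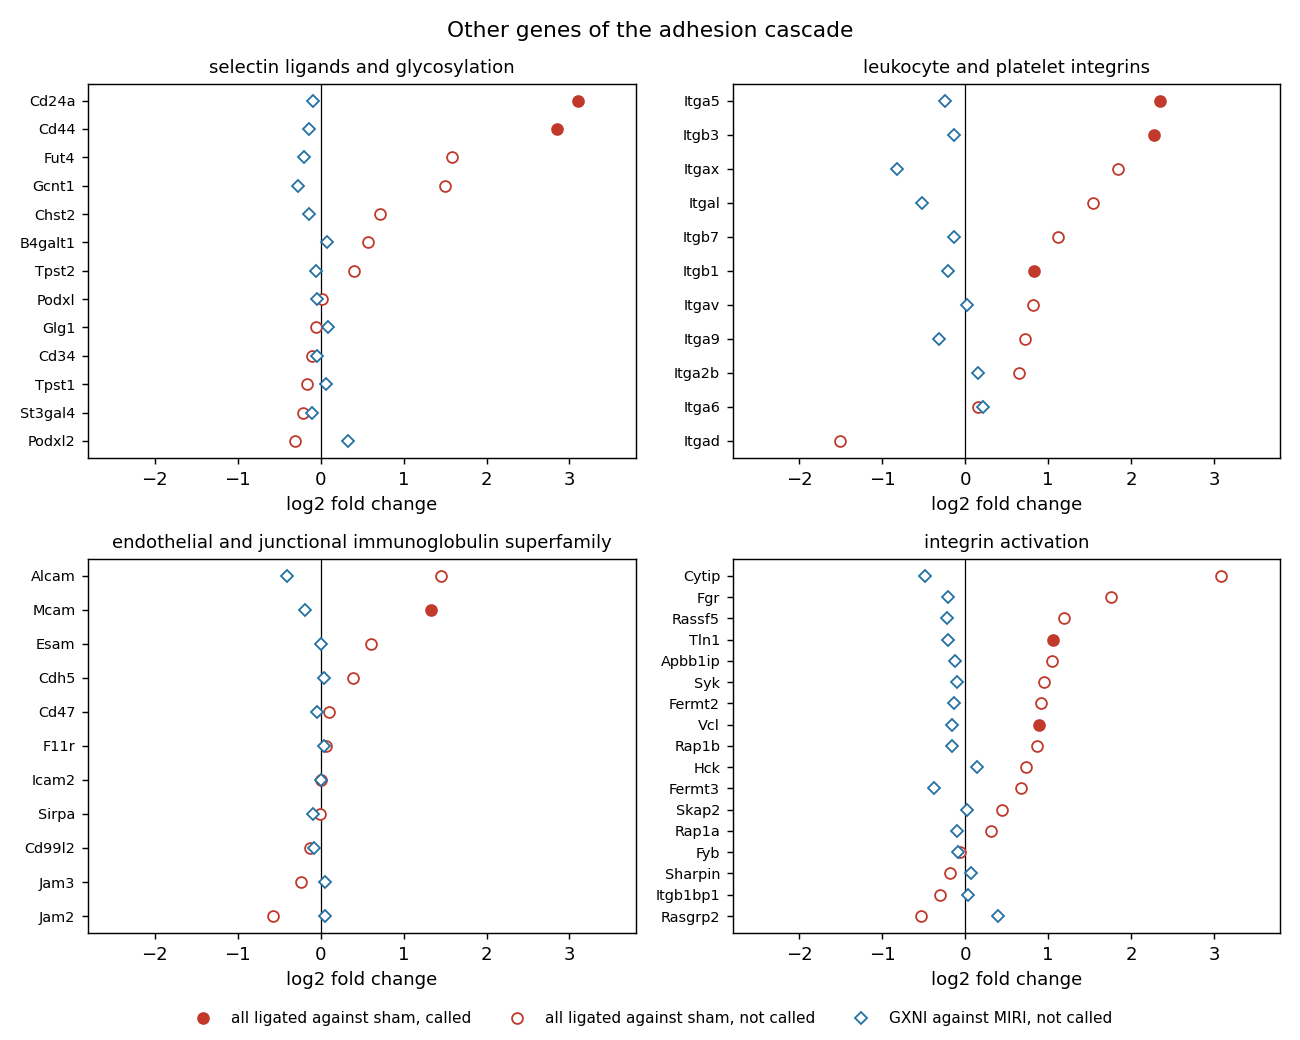
Log2 fold change of other adhesion cascade genes in all ligated against sham hearts (circles, filled where called) and in GXNI against MIRI hearts (diamonds), grouped by role. The 8 called genes all lie to the right of 0, and the diamonds lie between -0.82 for Itgax and 0.39 for Rasgrp2.

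The genes most like each member over the 9 libraries were taken by Pearson's r of log2 CPM among 15195 genes. Mical1 (0.993), Cand1 (0.992) and the immediate early gene Egr1 (0.991) were most like Sele. For Selp they were Slc16a3 (0.993), which encodes a lactate transporter, Inhbb (0.992) and Myc (0.991). Fes (0.998), Tlr13 (0.996) and Ddx27 (0.994) were nearest to Selplg, and Tfec (0.995), F630028O10Rik (0.993) and Cd14 (0.991) to Itgb2. Itgam was nearest to Mmp9 (0.99), a protease of neutrophil granules, then to Cyp4f18 (0.989) and Snord55 (0.986). For Icam1, Pecam1, Vcam1 and Itga4 the first genes were A030001D20Rik (0.99), Tmem185b (0.992), Gm37305 (0.965) and Cxcl16 (0.965). Like the correlations above, these rest on 9 points that share the sham and ligated contrast and are given as a description.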

How the data were processed

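Total RNA of heart tissue was sequenced in 9 mice, 3 each of the sham, MIRI and GXNI groups as GEO's labels give them. After quality trimming and alignment with HISAT2, the authors counted reads per gene with featureCounts and deposited these raw counts without normalization, and the submitters' processing notes name mm10. Versions, annotation release and strand setting are not given in the sources used here. GENCODE M21 (GRCm38) gave a symbol for 54409 of the 54532 identifiers, and coordinates and exon lengths, and antisense neighbours may share reads.

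Each comparison was fitted on its own libraries with edgeR 4.0.16 in R 4.3.3 (TMM, default filter on low counts, quasi-likelihood test, p-values adjusted over all genes tested by Benjamini-Hochberg). Standard errors were derived from the fold change and the F statistic. Calls needed a 1.5-fold change and an unadjusted p no higher than 0.01. CPM used TMM factors over the 9 libraries, with a prior count of 0.5 on the log scale. Ratios to markers were compared by two-sided exact permutation tests of 6 hearts against 3, since 3 against 3 cannot go below p = 0.1. Named genes were the 9 members, the called cascade genes, a fixed set of cascade genes whatever their value, and for each member the 3 genes most like it. The members and lists were chosen with earlier results of these data known. Alternatives were DESeq2 1.42.0, RLE factors, no filter, a fit of all 9 libraries, a block on the replicate number, the adjusted p, whole marker lists, each library left out in turn, and MIRI 2 and GXNI 3 left out together. The fits were tested on simulated counts. Library pairs differed by a chi-square per degree of freedom of 14.4 or more, so none was a repeat deposit. Counting floors cover counting error only. RefSeq promoters are on GRCm38.p6. Of the cascade list, 1 gene, counted in the totals, is not reported here.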

Additional observations from a re-analysis of the deposited data

How the results depend on the processing

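With 3 hearts a group, counts of calls moved with the setting. Where no share of all genes is printed for a setting, here or above, the counts do not show whether these genes moved more than the whole table. Among the 9 genes, in MIRI against sham, 2 calls became 5 with DESeq2, 5 without the filter on low counts, 1 with all 9 libraries in 1 fit, 0 at an adjusted p of at most 0.05, and 1 to 7 when 1 library was left out. In GXNI against sham, 0 became 6 with DESeq2, 6 without the filter, 1 with the replicate block, and 0 to 6 with 1 library left out. In all ligated against sham, 2 became 5 with DESeq2, 1 in the fit of all 9 libraries, 5 without MIRI 2 and GXNI 3, 0 at an adjusted p of at most 0.05, and 0 to 6 with 1 library left out. In GXNI against MIRI, 0 became 4 without MIRI 2 and GXNI 3.

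Among the cascade genes, 11 calls in MIRI against sham became 20 without the filter, 5 in the fit of all 9 libraries, 0 at an adjusted p of at most 0.05, and 3 to 32 with 1 library left out. In GXNI against sham, 6 became 14 with DESeq2, 15 without the filter, 0 at an adjusted p of at most 0.05, and 0 to 23. In all ligated against sham, 8 became 16 with DESeq2, 0 at an adjusted p of at most 0.05, and 3 to 22. In GXNI against MIRI, 0 became 1 in the fit of all 9 libraries and 12 without MIRI 2 and GXNI 3. At an adjusted p of at most 0.05 in MIRI against sham, 13 cascade genes passed with DESeq2, 11 without the filter, and 33 higher and 4 lower without MIRI 2. The cause was not tested, beyond the smaller number of hearts where libraries were left out.

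In GXNI against MIRI, leaving out 1 library moved the log2 fold change of Sele from -1.94 to 0.15, of Selp from -2.23 to 0.49, of Selplg from -0.95 to 0.36, of Icam1 from -0.43 to 0.77, of Vcam1 from -0.38 to 0.51, of Pecam1 from -0.31 to 0.16, of Itgb2 from -0.83 to 0.0436 and of Itga4 from -0.50 to 0.20. None of these was called. Without MIRI 2 and GXNI 3, Icam1 fell to -0.84 and Vcam1 to -0.64. For the log2 ratios in all ligated against sham, Pecam1 to Cdh5 was 0.14 with the whole marker list and 0.0176 without MIRI 2 and GXNI 3, and leaving out 1 library gave -0.0932 to 0.108 for Pecam1, -0.191 to 0.146 for Itga4 and -0.0793 to 0.206 for Vcam1.

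The replicate numbers were not taken to pair the animals, since deviations from the group means correlated from -0.445 to 0.701 between same-numbered libraries. With the replicate block, 2, 0, 1 and 2 of the 9 genes were called in MIRI against sham, GXNI against MIRI, GXNI against sham and all ligated against sham.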
